A study of Mus musculus with 28 samples.

Results

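Pth1r encodes the parathyroid hormone receptor, and its locus was examined here as 1 of 22367 protein-coding genes of the mouse genome (build mm9). The gene body lies on the minus strand at chr9:110624592-110649649, a span of 25.1 kb (ENSMUSG00000032492.7). The members were chosen by position: every called region within the gene body or 100 kb to either side, chr9:110524592-110749649. They came to 217 of 937290 regions, of which 8 of 32520 were peaks of a transcription factor and 209 of 904770 were histone regions.

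The regions came from chromatin immunoprecipitation with sequencing (ChIP-seq) in IDG-SW3, an immortalised mouse bone cell line with a transgene that puts GFP under the control of the Dmp1 promoter. The cells grow at 33 °C with interferon gamma, and mature from osteoblast-like into osteocyte-like cells at 37 °C without it. Cells of day 35 received 100 nM 1,25(OH)2D3 (the active vitamin D hormone, here 1,25D3) or vehicle for 3 h, and ChIP was done for the vitamin D receptor (VDR) and for its dimer partner RXR, the retinoid X receptor, with 2 biological replicates per arm. In untreated cells, 9 histone marks were profiled at day 35 and day 3 with 1 library each, so no difference between days has a replicate check or a test. Nothing used here states how deeply the libraries were sequenced. The lists held from 291 to 10333 regions for the factors and from 9360 to 100123 for the histone marks. Precision at this locus is limited by the 2 libraries per arm for the factors and the 1 library per mark and day.

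PTH1R is a receptor of the class B family coupled to G proteins. It binds parathyroid hormone and the related peptide PTHrP, and signals through Gs, cyclic AMP and protein kinase A and through Gq, phospholipase C and protein kinase C. Osteoblasts and osteocytes carry it, and through it the hormone acts on bone formation, on the release of RANKL and on calcium release; the kidney tubule is the other main site. Parathyroid hormone drives synthesis of 1,25D3 in the kidney, and 1,25D3 acts through VDR paired with RXR. Of the marks, H3K27Ac, H3K9Ac and H4K5Ac are acetylations of active promoters and enhancers. H3K4me3 marks active promoters, H3K4me1 and H3K4me2 mark enhancers and promoter flanks, H3K36me3 and H4K20me1 lie over transcribed genes, and H3K9me3 marks silent chromatin.

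The annotation gives Pth1r 3 start sites. Start site 1 is at position 110649649, start site 2 lies 3.46 kb downstream of it at 110646190, and start site 3 lies 4.54 kb downstream of it at 110645114. The 3 RefSeq promoter entries for the gene give the same start bases. The 250 bases before each start site are shown because the histone marks treated the 3 sites differently, with CpG dinucleotides in capitals (read from NCBIM37, the assembly of mm9, minus strand).
start site 1: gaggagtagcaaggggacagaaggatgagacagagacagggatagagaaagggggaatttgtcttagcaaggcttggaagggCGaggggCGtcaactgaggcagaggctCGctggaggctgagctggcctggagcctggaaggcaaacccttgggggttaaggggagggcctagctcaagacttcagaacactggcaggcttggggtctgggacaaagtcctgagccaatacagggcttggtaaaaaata
start site 2: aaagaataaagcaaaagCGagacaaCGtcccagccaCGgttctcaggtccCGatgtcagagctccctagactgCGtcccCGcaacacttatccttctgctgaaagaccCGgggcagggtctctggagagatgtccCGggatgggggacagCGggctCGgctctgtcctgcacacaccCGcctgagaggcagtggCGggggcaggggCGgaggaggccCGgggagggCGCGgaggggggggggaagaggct
start site 3: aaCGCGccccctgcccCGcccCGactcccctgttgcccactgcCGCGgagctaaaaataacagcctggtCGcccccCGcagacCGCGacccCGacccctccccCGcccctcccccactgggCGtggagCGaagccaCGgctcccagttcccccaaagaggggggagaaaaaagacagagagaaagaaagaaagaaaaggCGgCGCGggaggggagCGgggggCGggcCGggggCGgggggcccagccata
They lie at chr9:110649650-110649899 for start site 1, chr9:110646191-110646440 for start site 2 and chr9:110645115-110645364 for start site 3. Start site 1 had 3 CpG and 56% G and C. Start site 2 had 16 CpG and 65.6% G and C, and start site 3 had 22 CpG and 70.4% G and C. The medians over 45955 start sites of protein-coding genes were 9 CpG and 55.6%, so start site 1 lay below the median in CpG, and the other pair above it.

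VDR and RXR around the gene were compared first, to ask whether the hormone brought the receptor pair to Pth1r. No VDR peak was called within 100 kb of Pth1r in any library. The counts were 0 and 0 with 1,25D3, against 0 and 0 with vehicle. Over all protein-coding genes, 77.1% had no VDR peak in any of the 4 lists within that distance. A VDR site present in both 1,25D3 replicates was lacking for 82.0% of genes, and one in both vehicle replicates was present for 7.63%. RXR had 2 peaks in each replicate with 1,25D3, against 2 in each replicate with vehicle. Neither factor differed between arms (difference 0, exact two-sided permutation p = 1 for each, n = 2 per arm, where the smallest possible p is 0.333).

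The RXR peaks fell at the same 2 places in all 4 libraries, both upstream of the gene and outside any protein-coding gene. RXR site A spans chr9:110684018-110684591, with its centre 34.7 kb upstream of start site 1. RXR site B spans chr9:110693013-110693372, with its centre 43.5 kb upstream. No peak fell in the promoter windows, introns or exons of Pth1r. RXR sites in both 1,25D3 replicates lay within 100 kb of 45.0% of genes, and in both vehicle replicates of 30.5%. Of all protein-coding genes, 23.4% had 2 or more RXR sites within 100 kb in both 1,25D3 replicates, 10.6% had as many in both vehicle replicates, and 18.2% had an RXR site in both arms with no VDR peak in any list.

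The 300 bases at the centre of each RXR site, and of the nearest VDR site beyond the window, are shown on the plus strand to set the sites with and without VDR side by side. Capitals mark single receptor hexamers on either strand, the units that VDR and RXR recognise. They were searched without mismatch as AGGTCA and its 7 variants that allow G in place of the first A, T in place of the middle G and G in place of C.
RXR site A: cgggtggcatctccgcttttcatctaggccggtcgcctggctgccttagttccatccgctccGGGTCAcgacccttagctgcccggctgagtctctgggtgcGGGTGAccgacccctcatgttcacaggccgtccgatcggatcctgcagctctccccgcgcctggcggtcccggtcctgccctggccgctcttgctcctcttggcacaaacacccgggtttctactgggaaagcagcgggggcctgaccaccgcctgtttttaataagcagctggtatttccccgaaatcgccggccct
RXR site B: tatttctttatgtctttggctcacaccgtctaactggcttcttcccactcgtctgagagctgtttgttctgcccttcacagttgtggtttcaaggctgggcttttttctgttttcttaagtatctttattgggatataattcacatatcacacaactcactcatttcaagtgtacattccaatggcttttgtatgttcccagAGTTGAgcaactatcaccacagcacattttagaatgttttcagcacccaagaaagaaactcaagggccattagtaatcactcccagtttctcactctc
VDR site: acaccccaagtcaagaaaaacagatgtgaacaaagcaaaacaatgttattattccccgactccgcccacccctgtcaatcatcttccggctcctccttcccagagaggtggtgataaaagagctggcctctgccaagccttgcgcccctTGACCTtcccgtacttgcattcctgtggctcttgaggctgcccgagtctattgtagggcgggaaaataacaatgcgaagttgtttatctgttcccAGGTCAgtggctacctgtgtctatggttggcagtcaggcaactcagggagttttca
The windows lie at chr9:110684155-110684454 for RXR site A, chr9:110693043-110693342 for RXR site B and chr9:110902397-110902696 for the VDR site (NCBIM37). RXR site A held 2 hexamers, RXR site B held 1 and the VDR site held 2, and 85.1% of the 6783 RXR sites with 1,25D3 held at least 1. The outer bases of the sites were not searched: RXR site A is 574 bases wide and RXR site B 360. None of the 3 windows held 2 hexamers in the same direction spaced by 1, 3 or 4 bases, searched on both strands with at most 1 mismatch. Such direct repeats were present in 11.9% (spacing 1), 13.4% (spacing 3) and 14.3% (spacing 4) of the RXR sites, and the spacing of 3, the usual vitamin D response element, was present in 42.9% of the 1218 VDR sites with 1,25D3. RXR site B held the RUNX hexamer TGTGGT once on each strand, at bases 83 to 88 and 218 to 223 of the window, as did 41.4% of RXR sites at least once. The AP-1 motif TGANTCA was in none of the 3 windows and in 43.6% of RXR sites.

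The RXR sites differed in base composition. RXR site A held 24 CpG and 64% G and C, and 95.6% of the 6783 RXR sites held fewer CpG. RXR site B held 2 CpG and 40.7% G and C, against a median over all RXR sites of 4 CpG and 47.3%.

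RXR site A had peak scores of 9.8 and 7.9 in the 1,25D3 replicates, and of 9.9 and 12.4 in the vehicle replicates. The score is the authors' own value for a peak, with a scale that is not given, so it ranks peaks only within a list. By rank, RXR site A stood in the top 29.8% and 65.4% of the 1,25D3 lists, and in the top 29.8% and 16.9% of the vehicle lists. RXR site B had scores of 7.5 and 7.8 with 1,25D3, and of 4.7 and 8.5 with vehicle. Its ranks were the top 55.3% and 68.9% of the 1,25D3 lists and the top 98.8% and 59.6% of the vehicle lists. RXR site B was thus a middle or low peak in each list, close to the end of the list of vehicle replicate 1.

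The peaks at RXR site A did not lie exactly on each other. The peak of 1,25D3 replicate 1 was centred 186 bases from that of 1,25D3 replicate 2, and 227 and 280 bases from those of vehicle replicates 1 and 2. The other libraries' peaks were centred within 94 bases of each other, and all 4 peaks shared 14 bases. When 50% of the shorter peak had to be shared, the 1,25D3 arm kept 1 site in place of 2. At RXR site B the 4 peaks shared 253 bases and no pair of centres lay more than 43 bases apart. The lists also differed in length, and when each was limited to the 4093 highest scores, 1,25D3 replicates held 1 and 0 peaks in the window, against 1 and 2 for vehicle (exact permutation p = 0.667).

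Both RXR sites lay in acetylated chromatin at both days. RXR site A lay entirely, at day 35 and at day 3, in regions of H3K27Ac, H3K9Ac, H4K5Ac, H3K4me1 and H3K4me2. RXR site B was covered entirely at both days by H3K27Ac, H3K9Ac, H4K5Ac and H3K4me1, and by H3K4me2 over 41.1% of its bases at day 35 and 100% at day 3. At day 35 both sites shared 1 H3K27Ac region of 13.2 kb. At day 3 they had separate regions, 2.39 kb wide at RXR site A and 5.43 kb at RXR site B. Neither site was reached by H3K4me3, H4K20me1, H3K36me3 or H3K9me3 at either day, although an H3K9me3 region of 2.37 kb at day 3, chr9:110690629-110692996, ended just short of RXR site B.

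Most of these marks were common at such sites. Of the RXR sites with 1,25D3, 3061 (45.1%) were also in both vehicle lists and overlapped no VDR peak, as RXR site A and RXR site B did. Of those 3061 sites, 97.3% were reached by H3K27Ac at day 35 and 93.9% at day 3. H3K4me2 reached 92.6% at day 35 and 81.4% at day 3, and H3K4me3 reached 6.63% at day 35 and 10.5% at day 3. H4K20me1, which neither RXR site A nor RXR site B had, reached 27.7% at day 35 and 54.4% at day 3.

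The nearest VDR peaks lay 253 kb beyond the upstream end of Pth1r, at chr9:110902388-110902704, in both 1,25D3 libraries and in no vehicle library. They scored 30.7 (rank 171 of 1618) in 1,25D3 replicate 1 and 35.9 (rank 149 of 1333) in 1,25D3 replicate 2. RXR peaks there scored 10.9 and 17.8 in the 1,25D3 replicates, and no RXR peak was called there with vehicle. The nearest start sites to it were those of Gm10030 at 4.77 kb, Rtp3 at 10.3 kb and Ltf, which encodes lactoferrin, at 19.3 kb. On the other side of Pth1r the nearest VDR peak was 2155 kb away, so the gene stood near one end of a stretch of 2433 kb, holding 68 protein-coding genes, with no VDR peak in any of the 4 lists.

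**Figure D1:**
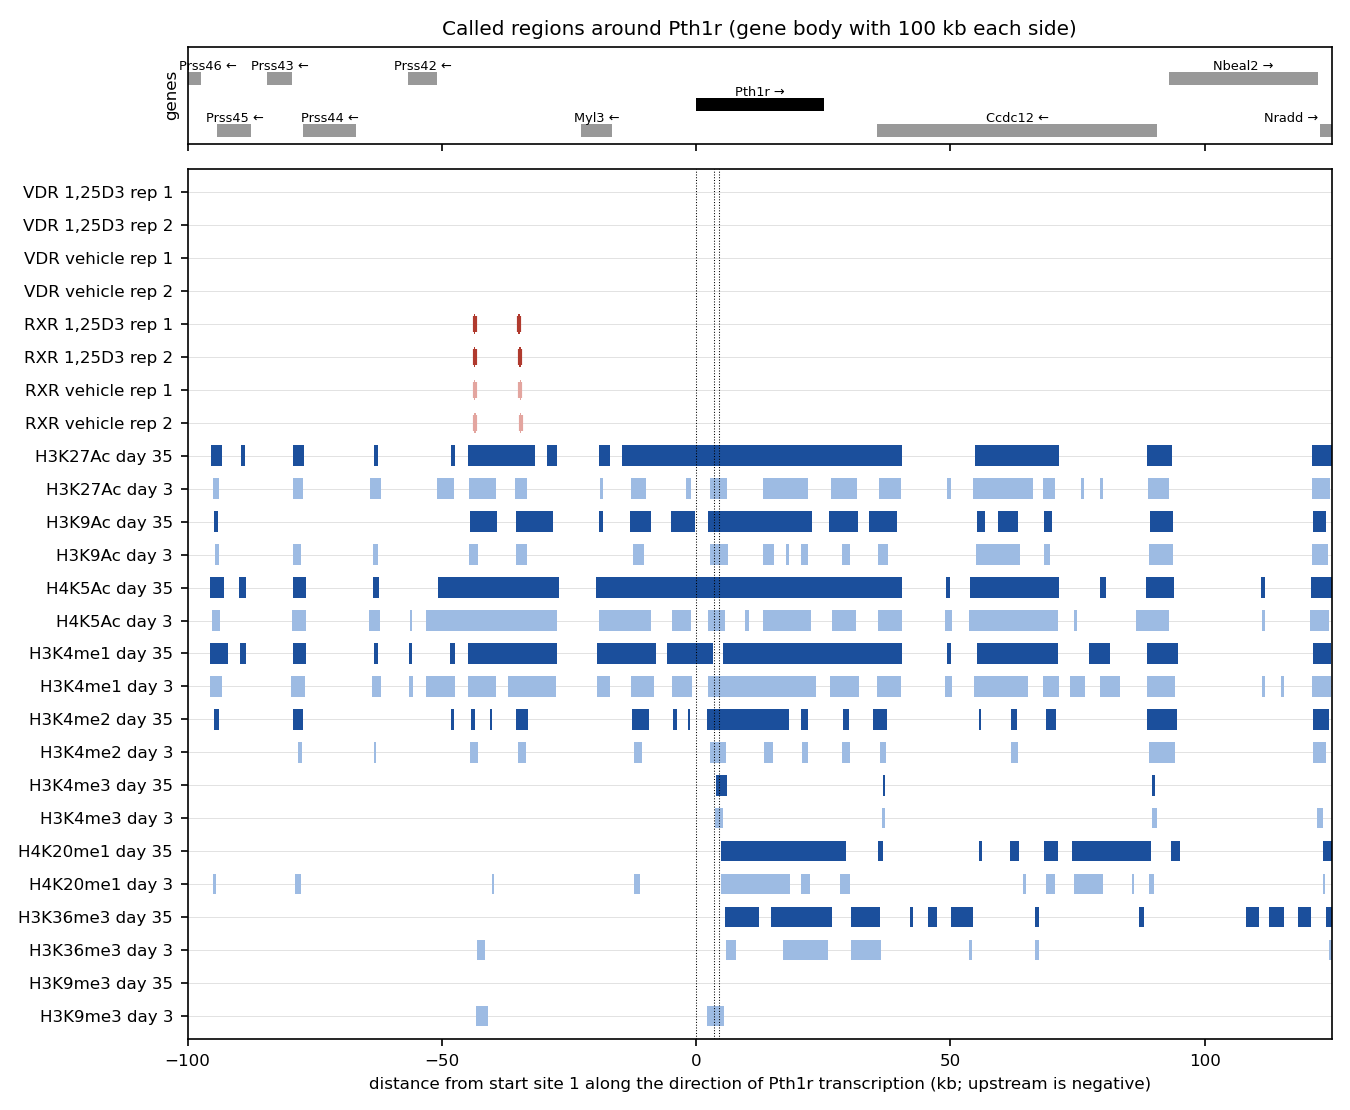
Called regions in the Pth1r gene body and 100 kb on each side, by distance from start site 1 along the direction of transcription (x axis, kb), with protein-coding genes above (arrows give their direction relative to Pth1r) and dotted lines at the 3 start sites. Rows are VDR and RXR lists by arm and replicate at day 35 (red; ticks mark peak centres), then each histone mark at day 35 (dark blue) above day 3 (light blue): VDR rows are empty, RXR rows hold peaks 34.7 and 43.5 kb upstream, and H3K9me3 is present at day 3 alone.

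The histone marks over Pth1r itself were far wider at day 35 than at day 3, mainly the acetylations and H3K4me2 inside the gene. Coverage is the percentage of bases of the gene with 5 kb each side (35.1 kb) that lie in a called region. H3K27Ac covered 100% at day 35, against 47.5% at day 3. H3K9Ac covered 82.4% at day 35 and 25.7% at day 3, and H4K5Ac covered 100% at day 35 and 58.6% at day 3. H3K4me2 covered 57.0% at day 35 and 21.4% at day 3. These differences were 52.5 percentage points for H3K27Ac, 56.7 for H3K9Ac, 41.4 for H4K5Ac and 35.5 for H3K4me2.

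Few genes had larger gains in these marks. Of the 22367 genes, 123 had a larger gain in H3K27Ac, 14 in H3K9Ac, 164 in H4K5Ac and 50 in H3K4me2. A gain of over 10 points was present in 17.8% of genes for H3K27Ac, 7.10% for H3K9Ac, 13.4% for H4K5Ac and 9.19% for H3K4me2. The lists themselves differed between days: day 35 regions covered 1.20 times as much of the genome as day 3 regions for H3K27Ac, 1.05 times for H3K9Ac, 1.13 times for H4K5Ac and 1.49 times for H3K4me2. With both days' H3K4me2 lists limited by score to the same covered length, the difference at Pth1r was 24.4 points, and the 3 acetylations did not move under that limit.

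The marks of transcribed gene bodies were also wider. H4K20me1 covered 70.3% at day 35 and 48.3% at day 3, and H3K36me3 covered 53.1% at day 35 and 31.3% at day 3. Gains of over 10 points were present in 17.9% of genes for H4K20me1 and 10.7% for H3K36me3, and 1699 genes had a larger gain than Pth1r in H4K20me1 and 991 in H3K36me3. Genome coverage at day 35 was 1.14 times that at day 3 for H4K20me1, 0.969 times for H3K36me3, 0.736 times for H3K4me3 and 1.56 times for H3K9me3. H3K4me1 covered 94.2% at day 35 and 81.5% at day 3, a difference of 12.7 points. A gain of over 10 points in H3K4me1 was present in 8.06% of genes, and in the gene body alone the difference at Pth1r was 7.52 points. For H3K4me3, coverage was 6.28% at day 35 and 4.36% at day 3, and 0.156% of genes were over 10 points higher. H3K9me3 covered 0% of the span at day 35, against 9.18% at day 3. For H3K9me3, 4.20% of genes were over 10 points higher and 4.18% lower. In all, 7 of the 9 marks were over 10 points higher at day 35 and 0 were over 10 points lower. In the gene body alone, 6 were higher and 1 was lower, H3K9me3 by -12.8 points. A loss of over 10 points was present in 5.83% of genes for H3K27Ac, 3.65% for H3K9Ac, 6.68% for H4K5Ac and 9.96% for H3K4me1. For the other marks it was present in 0.559% for H3K4me2, 2.14% for H3K4me3, 6.16% for H4K20me1 and 9.88% for H3K36me3.

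**Figure D2:**
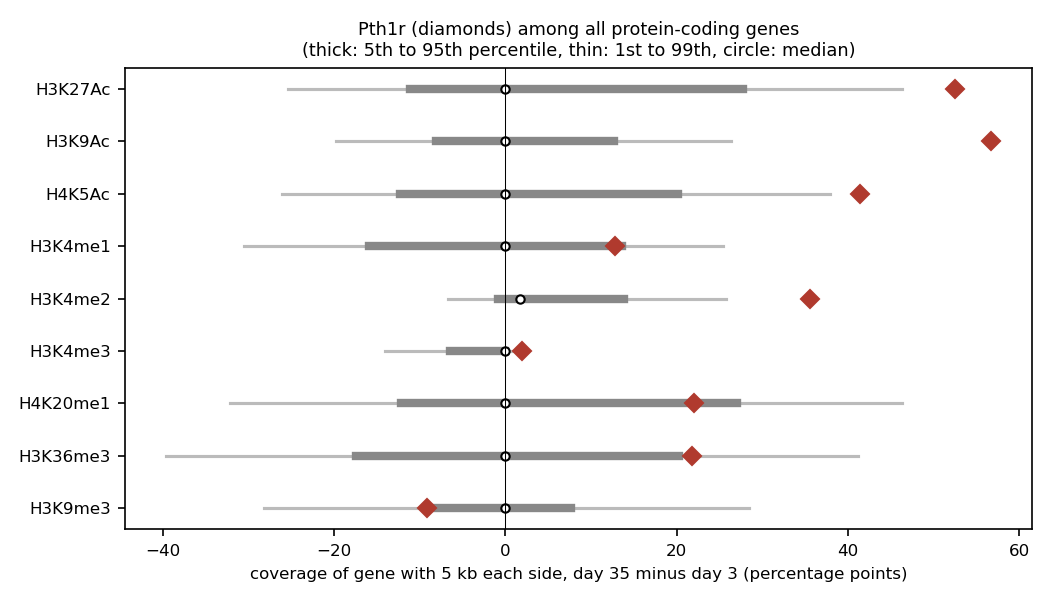
Difference in coverage of the gene with 5 kb each side between day 35 and day 3 (x axis, percentage points) for each mark, with Pth1r as a red diamond and all 22367 protein-coding genes as the median (circle), the 5th to 95th percentile (thick line) and the 1st to 99th percentile (thin line). Pth1r lies beyond the 99th percentile for H3K27Ac (52.5 points), H3K9Ac (56.7), H4K5Ac (41.4), H3K4me2 (35.5) and H3K4me3 (1.92), and inside it for the other marks.

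At day 35 single broad regions spanned the gene. The H3K27Ac region on Pth1r was 55.0 kb wide, chr9:110609211-110664221, from 14.6 kb upstream of start site 1 to 15.4 kb past the end of the gene. It ranked 225 by width and 161 by score among 67302 regions, and it covered the last 4.88 kb of the neighbour Ccdc12 but did not reach Myl3. At day 3 the gene held 2 H3K27Ac regions, of which the wider was 8.94 kb, rank 4888 by width of 67163. The widest H4K5Ac region on the gene was 60.2 kb (rank 241 of 72819) at day 35 and 9.38 kb at day 3. The widest H3K9Ac region was 20.4 kb (rank 119 of 56355) at day 35 and 3.60 kb at day 3, and the widest H3K4me2 region was 16.1 kb (rank 88 of 66645) at day 35 and 3.18 kb at day 3. By width, the Pth1r regions of these 4 marks thus ranked between 88 and 241 in their day-35 lists. H4K20me1 had 24.7 kb at day 35 and 13.5 kb at day 3, and H3K36me3 had 12.0 kb at day 35 and 8.95 kb at day 3.

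**Figure D3:**
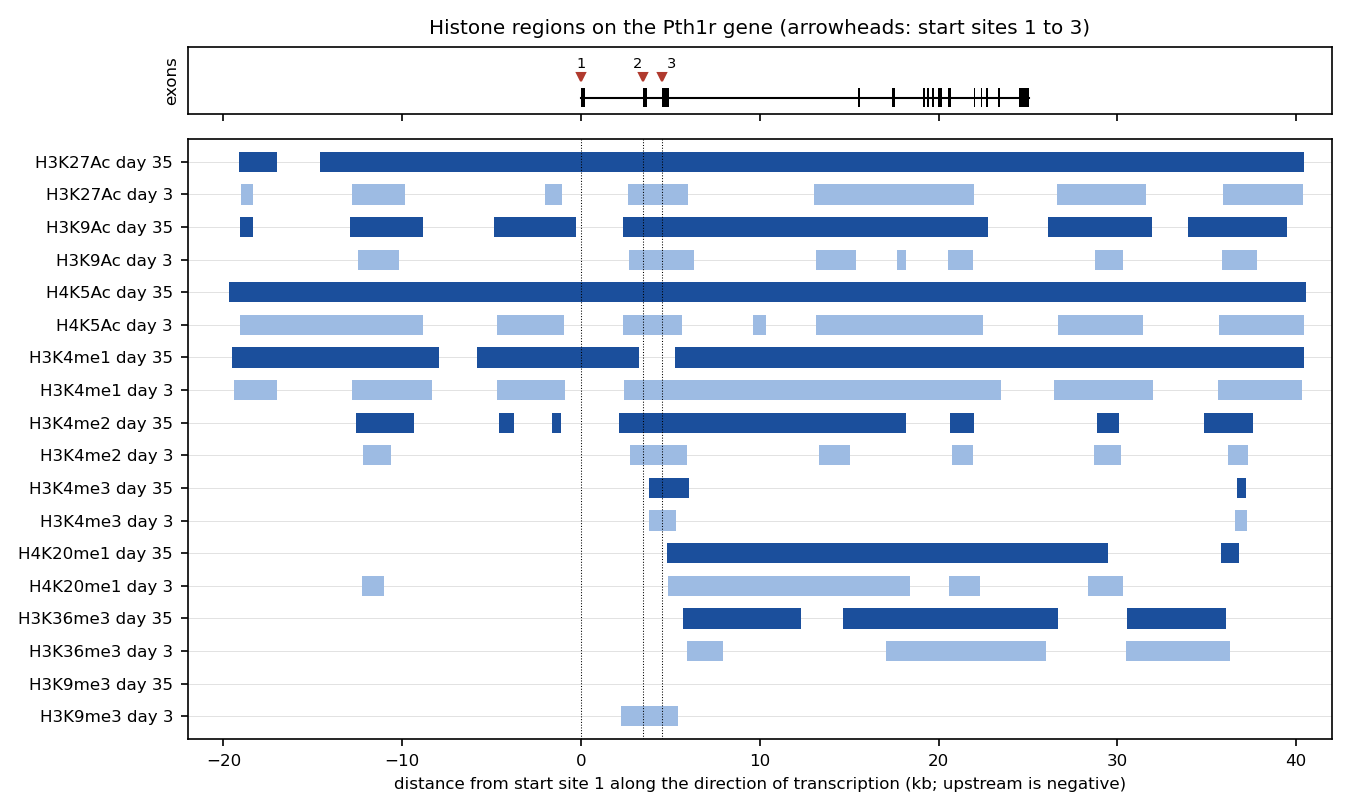
Histone regions on Pth1r by distance from start site 1 along the direction of transcription (x axis, kb), with exons (black boxes) and the 3 start sites (red arrowheads, dotted lines) above and each mark at day 35 (dark blue) over day 3 (light blue). At day 35 single H3K27Ac and H4K5Ac regions of 55.0 and 60.2 kb span the gene, where day 3 has separate regions; the H3K4me3 region lies over start site 3 at both days.

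The 3 promoters, taken as 1 kb on each side of a start site, behaved differently. At start site 1, H3K27Ac covered 100% at day 35 and 0% at day 3. H4K5Ac covered 100% at day 35 and 3.25% at day 3, H3K4me1 covered 100% at day 35 and 5.50% at day 3, and H3K9Ac covered 35.7% at day 35 and 0% at day 3. H3K4me2, H3K4me3, H4K20me1, H3K36me3 and H3K9me3 did not reach this window at either day. The CpG-poor start site was therefore inside the broad acetylated region at day 35 without an H3K4me3 region. Over 45961 start sites, H3K27Ac was over 10 points higher at 6.22%, and 0.701% had 0% at day 3 with 100% at day 35. For the other 3 marks, the share of start sites over 10 points higher was 8.37% for H4K5Ac, 6.59% for H3K4me1 and 7.01% for H3K9Ac.

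An upstream Pth1r promoter active mainly in kidney is known in the mouse, with a GC-rich promoter downstream of it that serves bone, cartilage and other tissues. The annotation used here does not say which start site is which, and RNA was not measured. Markers of kidney tubule cells were mixed in H3K27Ac coverage, which was 100% at day 35 and 57.6% at day 3 for the water channel Aqp2, 0% at both days for Umod, 9.89% at day 35 and 11.6% at day 3 for the phosphate transporter Slc34a1, and 28.0% at day 35, 0.97 points above day 3, for Cubn. None of these 4 genes had H3K4me3 at its start at either day. Their part in the result at start site 1 was not tested.

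Start sites 2 and 3 carried the active promoter marks at both days. Their windows overlap, so the values are not independent. The H4K5Ac region there at day 3 stood just past the middle of its list by score (66.5, rank 35908 of 68494). In the higher-scoring 50% of each list, H4K5Ac was therefore 100 points higher at day 35 at both, in place of 0. At start site 3, H3K27Ac, H3K9Ac, H4K5Ac and H3K4me2 covered 100% at day 35 and at day 3. H3K4me3 covered 85.7% of it at day 35 and 76.4% at day 3, and H4K20me1, which begins there and runs into the gene, covered 35.0% at day 35 and 32.2% at day 3. At start site 2, H3K27Ac covered 100% at day 35 and 90.9% at day 3, H3K9Ac 100% at day 35 and 87.9% at day 3, and H3K4me2 100% at day 35 and 84.8% at day 3. H3K4me3 covered 31.9% of start site 2 at day 35 and 33.0% at day 3. Differences of over 10 points higher were present at 7.01% of all start sites for H3K9Ac and 16.6% for H3K4me2.

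The H3K4me3 region itself was the same one at both days, with different extents. At day 35 it spanned chr9:110643627-110645828 (2.20 kb, score 185, rank 669 by width of 9360), and at day 3 chr9:110644322-110645849 (1.53 kb, score 69.1, rank 4795 by width of 11283). It lay over start site 3 and ended short of start site 2. H3K4me3 was within 1 kb of a start at both days in 41.1% of 22359 genes with a start site tested, at day 35 alone in 0.760% and at day 3 alone in 6.05%. The day-3 region stood at rank 8770 by score of its list, so it was absent from the higher-scoring 50% and from the lists of equal covered length, where the difference at start site 3 was 85.7 points in place of 9.35.

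H3K4me1 and H3K9me3 were lower at these start sites at day 35. H3K4me1 covered 38.2% of start site 2 and 13.8% of start site 3 at day 35, against 100% of each at day 3. The day-35 gap ran from chr9:110644390 to chr9:110646426, between 2 H3K4me1 regions, and held start sites 2 and 3 with most of the H3K4me3 region. H3K9me3 covered 0% of both at day 35, against 100% of start site 2 and 94.5% of start site 3 at day 3. The H3K9me3 region of day 3 was 3.22 kb wide, chr9:110644224-110647440, with a score of 57.3 (rank 9619 of 33157). H3K9me3 reached a start at day 3 alone in 6.68% of genes, at day 35 alone in 2.87% and at both days in 3.84%. Among all start sites, 10.6% were over 10 points lower in H3K4me1 and 6.31% in H3K9me3.

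At day 3, then, the H3K9me3 region overlapped the H3K4me3 region at start site 3. Both marks lay within 1 kb of the same start in 0.859% of genes at day 35 and 2.09% at day 3. Of all H3K9me3 regions, 0.792% at day 35 and 1.17% at day 3 overlapped an H3K4me3 region. ChIP on a culture cannot tell whether both marks were on the same alleles or in different cells.

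**Figure D4:**
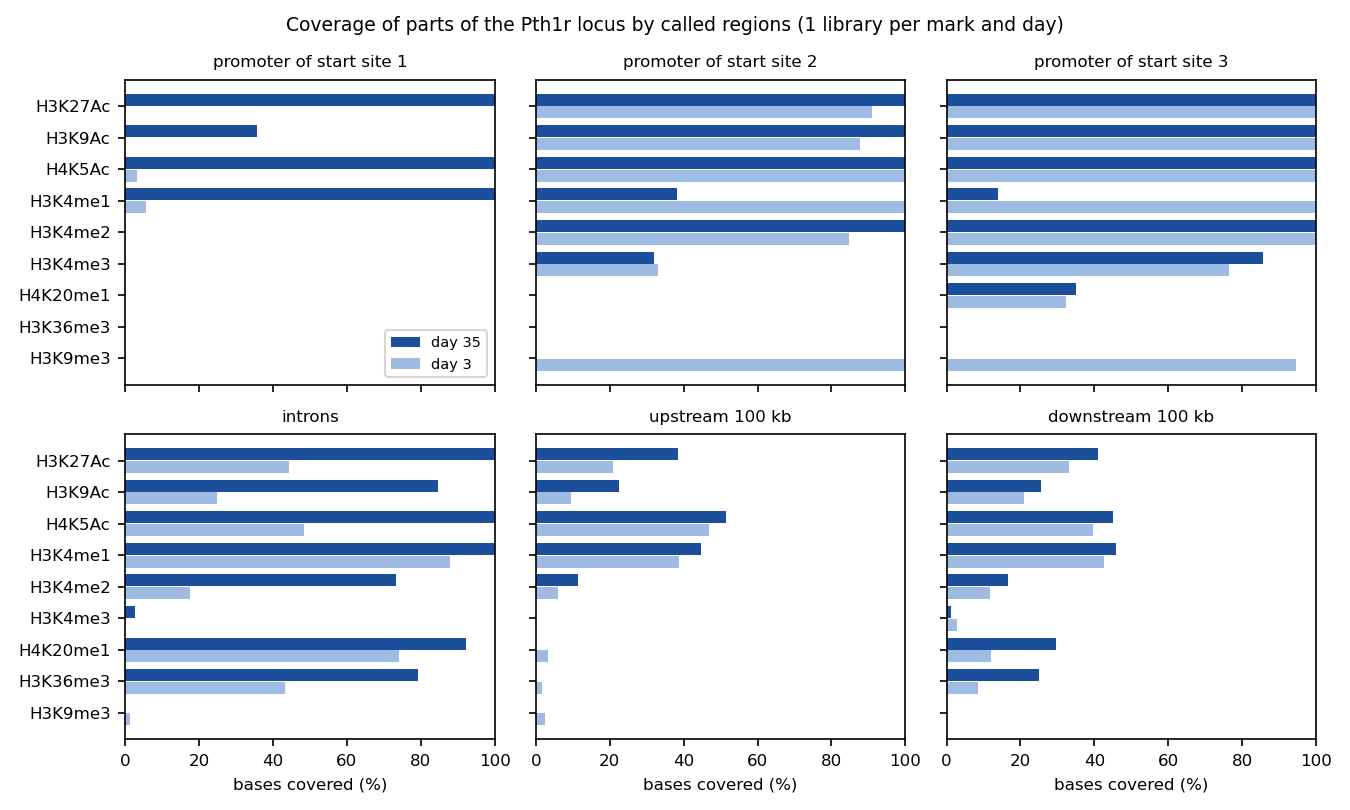
Percentage of bases (x axis) covered by called regions of each mark (y axis) at day 35 (dark blue) and day 3 (light blue) in the promoter of each start site (1 kb each side), in the introns outside those promoters, and in 100 kb upstream and downstream. Start site 1 has H3K27Ac at day 35 alone (100%), start sites 2 and 3 have H3K9me3 at day 3 alone, and the introns have 100% H3K27Ac at day 35 against 44.2% at day 3.

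The introns were more widely acetylated at day 35. Outside the promoters they span 19.1 kb in 14 pieces. H3K27Ac covered 100% of intron bases at day 35 and 44.2% at day 3, H3K9Ac 84.7% at day 35 and 24.7% at day 3, and H4K5Ac 100% at day 35 and 48.4% at day 3. H3K4me2 covered 73.4% at day 35 and 17.5% at day 3, and H3K36me3 covered 79.2% at day 35 and 43.2% at day 3. H3K4me1 covered 100% at day 35 and 87.8% at day 3, so most intron bases already had it at day 3. H4K20me1 covered 92.4% at day 35 and 74.0% at day 3. No intron base had H3K9me3 at day 35 (0%), against 1.31% at day 3.

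The longest intron piece, chr9:110634145-110644113 (9.97 kb), lies between start site 3 and the next exon downstream. H3K27Ac covered 100% of it at day 35 and 29.1% at day 3, H3K9Ac 100% at day 35 and 30.0% at day 3, and H3K4me2 100% at day 35 and 21.7% at day 3. H3K4me1 and H4K20me1 covered 100% of it at both days. This stretch thus had H3K4me1 throughout at day 3, before acetylation and H3K4me2 were called across it. H3K36me3 covered 74.8% of it at day 35 and 20.3% at day 3. In the exons outside promoters (1.87 kb), H4K20me1 covered 100% at day 35 and 23.5% at day 3, and H3K36me3 covered 100% at day 35 and 94.5% at day 3.

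Beyond the gene the differences were smaller. In the 100 kb upstream, H3K27Ac covered 38.6% at day 35 and 20.8% at day 3, and H3K9Ac covered 22.6% at day 35 and 9.47% at day 3. The H3K27Ac region of Pth1r itself reached 14.6 kb into this flank at day 35. In that stretch day 3 had H3K27Ac regions of 0.946 and 2.955 kb. Most of the H3K27Ac difference in the upstream flank thus lies in the region of Pth1r itself, and the rest of the flank was not measured apart. In the 100 kb downstream, H4K20me1 covered 29.6% at day 35 and 12.0% at day 3, and H3K36me3 covered 25.0% at day 35 and 8.53% at day 3. These were the only marks over 10 points higher in each flank, with 2 of 9 in each and 0 lower. Shares over the flanks of other genes are not given. H3K9me3 covered 0% of both flanks at day 35, against 2.37% upstream and 0% downstream at day 3.

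The neighbours did not share the whole pattern. All 9 lie within 100 kb. For the gene with 5 kb each side, H3K27Ac covered 34.4% at day 35 and 12.1% at day 3 for Myl3, a myosin light chain gene, and 18.4% at day 35 and 6.71% at day 3 for the serine protease gene Prss45. These were the neighbours in which H3K27Ac was over 10 points higher with H3K9Ac and H4K5Ac also higher, a condition met by 11.5% of genes. For Prss45 the H3K9Ac coverage hardly differed, at 4.81% at day 35 and 4.54% at day 3, a difference of 0.26 points. Myl3 starts at 110666150, so its 5 kb flank overlaps the 55.0 kb H3K27Ac region of Pth1r, which ends at 110664221. Part of the day-35 coverage of Myl3 is thus that region, as is part of that of Ccdc12. Nradd had 74.8% H3K27Ac at day 35 and 26.3% at day 3, but its H3K9Ac was 19.7% at day 35 and 22.7% at day 3. Nbeal2 had 28.4% H3K27Ac at day 35 and 19.4% at day 3, and Ccdc12 had 48.3% at day 35 and 39.4% at day 3. Prss42 had 4.32% at day 35 and 21.5% at day 3, and Prss44 had 14.3% at day 35 and 19.3% at day 3. Prss43 had 19.5% at day 35 and 12.5% at day 3, and Prss46 had 9.61% at day 35 and 5.10% at day 3. Of the neighbours, Ccdc12 had H3K4me3 at its start at both days and Nradd at day 3 alone.

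Genes that act with the receptor were then examined as a list of 74, all found in the annotation and chosen with earlier results of these data known. Of these, 17 (23.0%) had H3K27Ac coverage over 10 points higher at day 35 with H3K9Ac and H4K5Ac also higher, against 11.5% of all genes. Only Arrb2, beta-arrestin 2, was lower by the same rule (12.9% at day 35 and 25.8% at day 3), against 4.12% of all genes, and 56 met neither condition. The median H3K27Ac difference of the list was 4.00 points and that of all genes was 0. Only Mef2a and Tnfrsf11b of the list had a larger H3K27Ac gain than Pth1r. The count moved with the settings. With both days limited to equal covered length, 11 of the list (14.9%) were higher and 3 (4.05%) lower, against 8.12% and 6.86% of all genes. With a limit of 20 points, 8 (10.8%) were higher and 0 lower, against 6.06% and 1.28% of all genes.

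By role the numbers are small, and the share of all genes that met the condition, 11.5%, applies to each. Among the ligands and related receptors, 1 of 9 (11.1%) was higher. The ligand gene Pth had no H3K27Ac at either day, and Pthlh, which encodes PTHrP, had 15.3% at day 35 and 16.6% at day 3. The related receptor Pth2r had 6.70% at day 35 and 3.67% at day 3. Ramp1, a partner of receptors of this family, had 40.9% at day 35 and 18.3% at day 3. Pth1r, at 100% at day 35, thus stood well above its close relative and its ligands.

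Of the G proteins, 2 of 7 (28.6%) were higher, against 11.5% of all genes. Gna12 had 53.7% H3K27Ac at day 35 and 43.5% at day 3, and Gnai2, an inhibitory subunit, had 87.6% at day 35 and 76.5% at day 3. Gnas, which encodes Gs alpha, had 29.6% at day 35 and 23.1% at day 3, and Gnaq had 61.1% at day 35 and 56.4% at day 3. Gna11 had 74.3% at day 35 and 41.9% at day 3 in H3K27Ac, but 42.5% at day 35 and 52.8% at day 3 in H4K5Ac, so it did not meet the condition. All 7 had H3K4me3 at the start at both days, against 41.1% of all genes.

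Of the effector enzymes, 1 of 8 (12.5%) was higher, against 11.5% of all genes. It was Adcy6, an adenylyl cyclase, with 55.7% H3K27Ac at day 35 and 44.9% at day 3. Of the kinases, 1 of 8 (12.5%) was higher. It was Prkar1b, a regulatory subunit of protein kinase A, with 33.2% at day 35 and 11.2% at day 3. Of the genes for desensitization and trafficking, 1 of 11 (9.09%) was higher. It was Slc9a3r2, a scaffold protein, with 49.6% at day 35 and 38.3% at day 3. Its H3K9Ac was 34.7% at day 35 and 34.5% at day 3, a difference of 0.15 points.

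The nuclear effectors and their regulators had 6 of 19 (31.6%) higher, against 11.5% of all genes. They included the MEF2 transcription factors and Hdac5, a deacetylase that represses them. Mef2a had 84.1% H3K27Ac at day 35 and 23.4% at day 3, Mef2d had 100% at day 35 and 69.3% at day 3, and Mef2c had 14.1% at day 35 and 0.648% at day 3. Hdac5 had 75.7% at day 35 and 46.9% at day 3. Nr4a1, an orphan nuclear receptor gene induced by parathyroid hormone in osteoblasts, had 67.4% at day 35 and 37.0% at day 3, and Crtc3, a coactivator of CREB, had 33.4% at day 35 and 21.9% at day 3.

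Known targets of the hormone in bone had 5 of 12 (41.7%) higher, against 11.5% of all genes. Tnfrsf11b, which encodes the RANKL decoy osteoprotegerin, had 77.0% H3K27Ac at day 35 and 18.4% at day 3. Tnfsf11, which encodes RANKL, had 19.2% at day 35 and 6.14% at day 3. The collagenase gene Mmp13 had 53.6% at day 35 and 21.3% at day 3, and the cytokine gene Il6 had 29.1% at day 35 and 15.2% at day 3. Dmp1, a matrix protein gene whose promoter is also in the transgene, had 71.8% at day 35 and 58.5% at day 3, but H3K9me3 also covered 45.3% of it at day 35 and 46.0% at day 3. Sost, which encodes the Wnt inhibitor sclerostin, had 6.29% at day 35 and 6.56% at day 3.

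Within 100 kb, 57 of the 74 genes (77.0%) had no VDR site in both 1,25D3 replicates, against 82.0% of all genes, and Pth1r was like them in this. An RXR site in both 1,25D3 replicates was present for 47 (63.5%), against 45.0% of all genes.

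**Figure D5:**
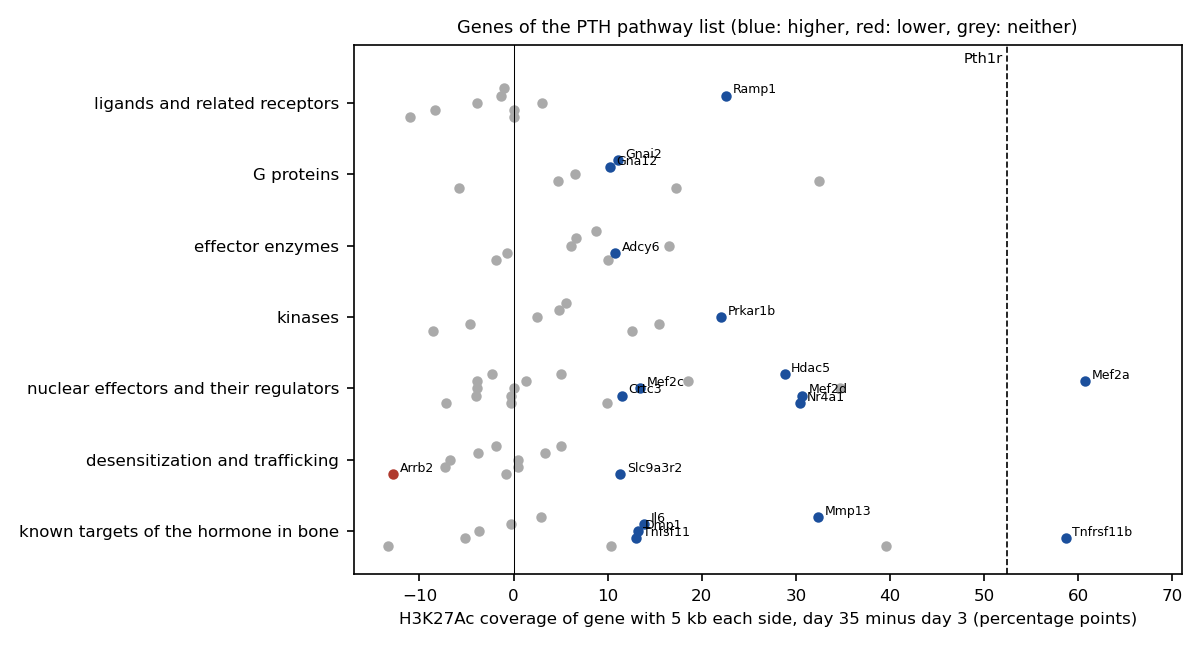
Difference in H3K27Ac coverage of the gene with 5 kb each side between day 35 and day 3 (x axis, percentage points) for the 74 genes of the pathway list by role (y axis; vertical spread within a role is for legibility). Blue points are the 17 genes called higher, the red point is Arrb2, called lower, and grey points are the 56 others; the dashed line is Pth1r at 52.5 points, with Mef2a and Tnfrsf11b beyond it.

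The genes with a pattern most like that of Pth1r were found by the Euclidean distance over the 18 coverage values (9 marks at 2 days, 22357 other genes compared). The nearest was Fam102a at 36.2 points, followed by Alpl at 48.6, Obfc2a at 51.3, the connexin 43 gene Gja1 at 53.9 and the formin gene Fmnl3 at 54.5. The median distance over all genes was 206 and the lowest 1% lay under 80.6. Fam102a had H3K27Ac coverage of 93.3% at day 35 and 49.5% at day 3, and Alpl, which encodes the alkaline phosphatase of mineralising bone, had 93.4% at day 35 and 65.8% at day 3. Ranked by Pearson correlation over the same 18 values, 2 of the nearest 5 were shared, Fam102a (r = 0.97) and Alpl (r = 0.94). These values share their libraries and region lists, so they are a description of likeness.

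The labelled cell type was checked by markers. Osteoblast genes had a median H3K27Ac coverage of 89.0% at day 35 and 65.3% at day 3. H3K4me3 was at the start of 5 of 6 at day 35 and 4 of 6 at day 3. Among all genes, 41.1% had H3K4me3 at a start at both days, 0.760% at day 35 alone and 6.05% at day 3 alone. Osteocyte genes had a median H3K27Ac coverage of 35.6% at day 35 and 22.4% at day 3. H3K4me3 was at the start of 2 of 6 at both days, against 41.1% of all genes. One of the 2 was Dmp1, where marks of opposite kinds covered similar spans: H3K9me3 covered 45.3% at day 35 and 46.0% at day 3, H3K36me3 45.6% at day 35 and 45.9% at day 3, and H3K4me3 45.6% at day 35 and 45.3% at day 3. Reads from the Dmp1 transgene and from the gene itself cannot be told apart. Neither of the late osteocyte genes Sost and Fgf23 had H3K4me3 at its start. H3K4me3 covered 6.90% of Sost at day 35 and 7.89% at day 3, and 0% of Fgf23 at both days. H3K27Ac covered under 9% of each at both days. Other cell types had medians of 16.9% at day 35 and 8.30% at day 3 (adipocyte), 5.91% and 14.2% at those days (chondrocyte), 0% and 1.69% (myogenic) and 6.49% and 6.52% (endothelial). The 5 haematopoietic and osteoclast genes were mixed, with a median difference of 0.76 points. Ctsk had 81.7% at day 35 and 35.2% at day 3, and Sfpi1 had 45.5% at day 35 and 11.8% at day 3. Cd68 had 95.5% at day 35 and 100% at day 3, Acp5 had 5.26% at day 35 and 9.01% at day 3, and Ptprc had 2.50% at day 35 and 1.75% at day 3. Their part in the differences at Pth1r was not tested.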

How the data were processed

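ChIP-seq of VDR, RXR and 9 histone marks in IDG-SW3 cells gave 26 lists, 1 per sample, so replicates were called separately, and the 2 input samples were not used here. The reads were handled with Bowtie and HOMER on build mm9, per the submitters' processing notes, in which no versions or settings are given, nor whether the inputs were used. The deposited lists hold chromosome, start, end and the authors' score, whose scale is not stated and which served here only for ranks and filters inside 1 list. Starts were read as 0-based and are printed 1-based. Chromosome lengths were checked against NCBIM37 (0 regions beyond an end), and genes came from GENCODE M1 on the numbered chromosomes, X and Y.

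Groups, days, dose and treatment time came from the labels, which name the 2 VDR and RXR libraries of an arm biological replicates. File names of replicate 2 and of the histone marks bear a tag (BIOO) absent from replicate 1, and each arm holds 1 library with it and 1 without. What the tag stands for is not stated. A site is a place where peaks of both replicates share at least 1 bp. Peak numbers in the window were set against each other in an exact permutation test, two-sided, 2 libraries against 2. Coverage is the percentage of bases in called regions, and a difference of over 10 points counts as higher or lower. The genes named are Pth1r, its neighbours within 100 kb, pathway genes that met the condition with 6 named in any case, and the 5 most like Pth1r. The other genes that are named were chosen after their values were seen. The members and lists were chosen with earlier results of these data known. The overlap code was tested on simulated intervals (500 of 500 windows recovered). Python 3.11.15, pandas 2.3.3 and numpy 2.4.6 were used. Intervals on read counts cannot be given.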

Additional observations from a re-analysis of the deposited data

How the results depend on the processing

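VDR and RXR peak differences between arms were 0 without each library in turn (range 0 to 0), with 50 kb windows, and in a fit with the replicate block, where equal replicate numbers are taken as pairs (0 for both factors, exact sign-flip p = 1). The counts do not vary between the libraries of a factor, so leaving out a library or pairing replicates could only give 0. For the same reason, the check of shared deviations between equal numbers could not be made. RXR differed by -0.5 peaks (1,25D3 minus vehicle) in the higher-scoring 50% of each list and by -1 in lists of equal length, and the RXR 1,25D3 sites were 1 when 50% of the shorter peak had to overlap. VDR stayed at 0 under both filters. For coverage of Pth1r with 5 kb each side, H3K27Ac ranged from 47.4 to 55.2 points over the alternatives, and the marks over 10 points higher numbered 6 or 7. H3K9me3 crossed the limit in the gene body alone (-12.8). The alternative of equal covered length was chosen after seeing the data. With promoters of 2 kb each side, H3K27Ac differed by 29.5 points at start site 2 and 16.3 at start site 3, in place of 9.10 and 0. Over the 3 promoters, 6 combinations of mark and start site were over 10 points higher. The number was 13 with 2 kb windows, 10 in the higher-scoring 50% and 8 at equal covered length. The windows of start sites 2 and 3 overlap, more so at 2 kb, so these numbers count some bases repeatedly. Shares over all start sites under these alternatives are not given. Pathway genes called higher were 8 at 20 points and 11 at equal covered length, and those called lower were 0 and 3. By Pearson correlation, 2 of the 5 most like genes were shared. The cause of these changes was not tested. Over all alternatives, 158 values stayed close or on the same side of the 10-point limit and 27 moved. The 158 include values that could not move, such as peak differences without 1 library. Filtered lists of marks absent from a promoter at both days are others. For the main results (peaks, sites, H3K27Ac coverage, numbers of marks and pathway genes, and likeness), 45 stayed and 12 moved. The sign changed for H3K4me3 at start site 2 alone, which was -1.05 points and became 2.77 with 2 kb windows and 31.9 in the higher-scoring 50% and at equal covered length. No difference of over 10 points changed sign. With 1 histone library per day, depth and library quality cannot be told apart from the day.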
